A study of Mus musculus with 12 samples.

Results

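The response of wild-type MEFs (fibroblasts cultured from mouse embryos) to 6 h of transfected poly(I:C) was measured across all genes, on 6 of the 12 arrays of the series. The cells were wild type, and a group was either left untreated or lipofected with high molecular weight poly(I:C), which stands in for viral double-stranded RNA, at 2.5 µg/ml. Both groups held 3 arrays, 1 from each of 3 independent experiments. Arrays with the same replicate number are taken here as 1 experiment and called by that number. The other 6 arrays hold GADD34ΔC/ΔC cells (ΔC) under the same conditions. Here they help to choose the genes and probes tested and to estimate the spread of each gene. They also serve to test 1 difference between genotypes. The labels list no group that got only the lipid, so that effects of RNA and lipid cannot be told apart, and they name no line or embryo of origin. RNA came from the supernatant of an NP40 lysate after a short spin.

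Double-stranded RNA in the cytosol is bound by the helicases RIG-I and MDA5, and in endosomes by TLR3. Their adaptors activate the kinases TBK1 and IKKε and the IKK complex, which turn on the transcription factors IRF3, IRF7 and NF-kB. These start the genes of interferon beta, of cytokines and of NF-kB inhibitors. Secreted interferon then acts through its receptor, the JAK kinases and a STAT complex with IRF9, which binds the interferon-stimulated response element (ISRE). Fibroblasts are a common source of interferon beta in infected tissue. The kinase PKR, itself the product of an interferon-stimulated gene, slows translation when it binds double-stranded RNA, and RNase L, switched on by the products of OAS enzymes, cuts RNA.

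Signals are given as log2 of the processed intensity minus the 75th percentile of the array, so that 0 is that percentile and 1 unit is a factor of 2. A change is the mean of the poly(I:C) arrays minus the mean of the untreated arrays, with its standard error from limma. A gene was called, and is said to have risen or fallen, at a Benjamini-Hochberg adjusted p under 0.05 over the 15445 genes tested. Levels of different genes come from different probes and are not set against each other. Of 55681 probes, between 60.4 and 64.0% were well above background on each wild-type array. In bulk RNA, fewer cells with a transcript and less of it per cell cannot be told apart, and neither can a change in the share of cells that took up the RNA.

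Poly(I:C) array 3 stood apart from the other 2 poly(I:C) arrays, and untreated array 3 from the other 2 untreated arrays. On the first principal component of the wild-type arrays, which held 65.6% of their variance, the untreated arrays lay at -54.3, -49.5 and -45.6. The poly(I:C) arrays lay there at 68.6, 64.4 and 16.4. The second component held 19.4%, and on it untreated array 3 lay at -40.0 and poly(I:C) array 3 at -37.9. The remaining wild-type arrays lay between 10.6 and 34.7. The median change of the genes that rose was 2.08, 2.00 and 1.02 within experiments 1, 2 and 3, and that of the genes that fell was -0.83, -0.79 and -0.29. Experiment 3 gave the smallest of the 3 changes for 718 of the 809 genes that rose and for 219 of the 237 that fell. The counts of calls over all genes are therefore given with and without the 4 arrays numbered 3 of both genotypes. For the lists the second count is given only in part, and a list without it is not thereby unaffected. Poly(I:C) array 3 was also alone among the wild-type arrays on its slide and scan day, so that experiment, slide and scan day cannot be told apart for it. Untreated array 3 shared its slide and scan day with untreated array 1.

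Promoters of 7 genes that rose are shown because their rises carry the main classes described below: the interferon gene Ifnb1, the interferon-stimulated genes Isg15 and Ifit1, the chemokine gene Cxcl10, the cytokine gene Il6, the NF-kB inhibitor gene Nfkbia and the immediate-early gene Egr2. Each is the 250 bases before the transcript start in RefSeq (GRCm38.p6), written 5′ to 3′ on the strand of the gene. Capitals mark ISRE letters (GAAA, any 2 bases, GAAA) in Isg15, Ifit1 and Cxcl10, NF-kB letters in a wide form (GGGA, any 2 bases, TTCC) in Ifnb1, Cxcl10, Nfkbia and Il6, IRF letters (AANNGAAA) in Ifnb1 and a CArG box, the site of serum response factor, in Egr2. Both strands were searched.
Ifnb1 (chr4:88522795-88523044, minus strand): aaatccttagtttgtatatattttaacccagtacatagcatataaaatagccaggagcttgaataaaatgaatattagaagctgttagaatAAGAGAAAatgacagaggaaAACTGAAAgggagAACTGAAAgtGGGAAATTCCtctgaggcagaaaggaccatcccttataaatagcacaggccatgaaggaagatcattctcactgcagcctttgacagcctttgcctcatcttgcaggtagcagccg
Isg15 (chr4:156200819-156201068, minus strand): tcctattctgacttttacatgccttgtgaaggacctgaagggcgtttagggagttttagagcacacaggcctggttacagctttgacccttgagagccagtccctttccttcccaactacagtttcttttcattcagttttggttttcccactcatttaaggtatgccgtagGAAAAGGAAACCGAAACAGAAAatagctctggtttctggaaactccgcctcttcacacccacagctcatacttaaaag
Ifit1 (chr19:34640639-34640888, plus strand): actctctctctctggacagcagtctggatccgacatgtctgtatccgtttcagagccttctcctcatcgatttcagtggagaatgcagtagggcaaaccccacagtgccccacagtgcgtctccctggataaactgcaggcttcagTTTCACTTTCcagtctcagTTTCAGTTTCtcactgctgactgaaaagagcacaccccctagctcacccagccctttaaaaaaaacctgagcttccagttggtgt
Cxcl10 (chr5:92348890-92349139, minus strand): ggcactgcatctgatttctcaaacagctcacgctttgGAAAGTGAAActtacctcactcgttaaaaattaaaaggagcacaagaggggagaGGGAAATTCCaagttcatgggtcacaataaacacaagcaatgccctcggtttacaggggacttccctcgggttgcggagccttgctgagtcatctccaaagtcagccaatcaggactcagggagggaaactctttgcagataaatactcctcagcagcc
Nfkbia (chr12:55492648-55492897, minus strand): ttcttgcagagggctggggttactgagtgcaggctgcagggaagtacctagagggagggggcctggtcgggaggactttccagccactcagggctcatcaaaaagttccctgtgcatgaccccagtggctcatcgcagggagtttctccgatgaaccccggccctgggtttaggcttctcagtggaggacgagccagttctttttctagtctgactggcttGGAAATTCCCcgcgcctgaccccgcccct
Il6 (chr5:30012864-30013113, plus strand): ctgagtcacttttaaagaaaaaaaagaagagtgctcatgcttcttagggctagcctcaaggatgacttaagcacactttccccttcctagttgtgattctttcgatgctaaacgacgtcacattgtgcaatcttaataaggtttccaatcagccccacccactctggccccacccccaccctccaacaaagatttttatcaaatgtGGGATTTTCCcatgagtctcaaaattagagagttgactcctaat
Egr2 (chr10:67537316-67537565, plus strand): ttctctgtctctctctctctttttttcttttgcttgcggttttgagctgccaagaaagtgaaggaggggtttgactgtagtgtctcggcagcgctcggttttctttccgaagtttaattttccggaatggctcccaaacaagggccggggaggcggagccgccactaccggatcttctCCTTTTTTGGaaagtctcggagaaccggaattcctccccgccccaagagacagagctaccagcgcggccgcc
Isg15 held 3 ISRE matches that overlap in a single run, 57 to 78 bases before the start, and Ifit1 held 2 on the opposite strand. The match of Cxcl10 lay 204 to 213 bases before the start. Ifnb1 held no full ISRE match in this window, but 3 of the shorter IRF letters between bases 119 and 159, upstream of its NF-kB letters. The NF-kB letters of Il6 lay at bases 35 to 44 and those of Nfkbia at bases 20 to 29. The CArG box of Egr2 lay at bases 63 to 72 of the promoter shown, 1 of 5 in the table. Promoters holding the letters to be marked were put first in that choice, so that the box in it is no finding. These are matches of letters and not measured binding.

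The response was large in its rises and small in its falls. Of 15445 genes, 1046 were called (6.77%): 809 rose (5.24%) and 237 fell (1.53%). Rises of 2-fold or more numbered 605 (3.92%) and falls of that size 34 (0.22%). By size, 204 rises were under 2-fold, 260 were between 2- and 4-fold, 139 between 4- and 8-fold, 129 between 8- and 32-fold, and 77 were 32-fold or more. Among the falls, 203 were under 2-fold, 31 between 2- and 4-fold and 3 between 4- and 8-fold. In a fit of all 35200 probes, named or not, 1263 were higher (3.59%) and 204 lower (0.58%). The median change of all genes was -0.14, and 64.8% of the genes had a change below 0. Without the 4 arrays numbered 3, 2001 genes rose (13%) and 3262 fell (21.1%), so that rises were 38.0% of the calls instead of 77.3%. With each array scaled to its median, 583 genes rose and 14 fell, and rises were 97.7% of the calls. The groups did not overlap for 1848 genes that were higher (12%) and 2880 that were lower (18.6%) on the poly(I:C) arrays. All 809 rises were among the former, so that groups apart, where named below, add nothing to the call of a rise. Of the rises, 136 were members of the 7 lists on innate immunity, and 591 were in none of the 49 lists. Of the falls, 0 were in the innate lists, 28 were in other lists and 209 were in none.

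**Figure D1:**
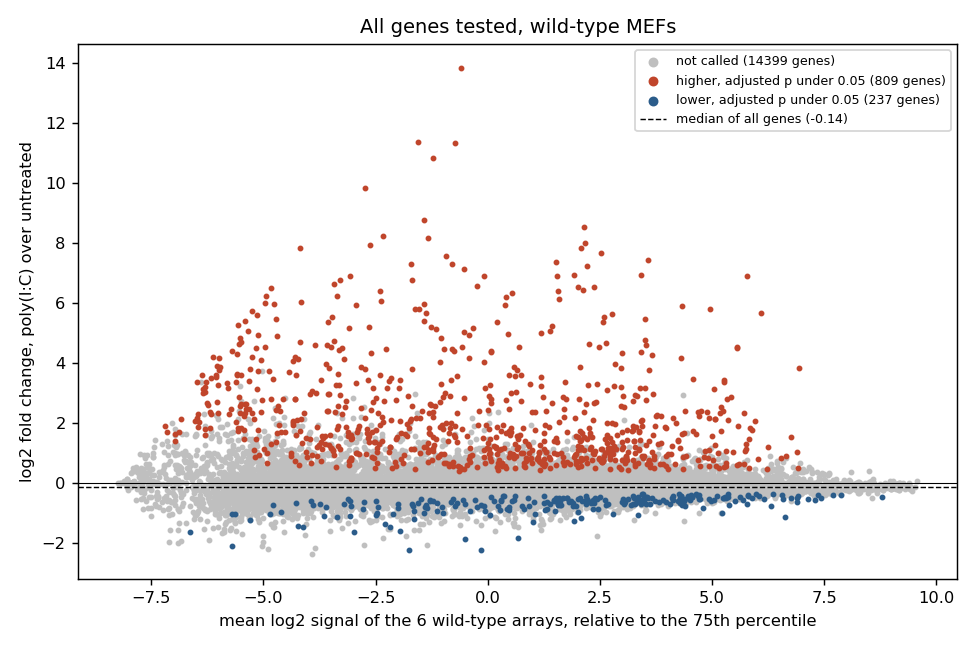
Change with poly(I:C) (vertical axis, log2 fold change) against the mean log2 signal of the 6 wild-type arrays (horizontal axis) for the 15445 genes, with 809 rises in red, 237 falls in blue and the genes that were not called in grey. Rises reach 13.81 and spread over the whole range of signal, falls reach -2.26, and the dashed line is the median of all genes at -0.14.

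Of 20 interferon genes, 13 were tested and 7 are not analysed here. Of the 13, 12 rose (median 3.85), beside 5.24% of all genes. A gene could enter the test through the treated arrays alone, which tilts such counts towards rises, as it did for Ifnb1 and Ifna4. Of the 10 interferon genes detected on all untreated arrays, 9 rose. Ifnb1, the gene of interferon beta, was not well above background on any untreated array and read 6.78, 6.58 and 5.58 on the poly(I:C) arrays, at least 4930-fold higher (adjusted p = 3.04e-06). Ifna4, an early interferon alpha gene, was likewise dim on the untreated arrays and read 2.98, 3.04 and 0.52, at least 280.5-fold higher. In both genes the reading of experiment 3 was the lowest of the treated ones, and no treated reading came near the untreated ones. Ifna12 read -4.61, -4.49 and -4.10 untreated and 2.45, 2.46 and -0.24 treated (change 5.95 ± 0.60). Ifna16 changed by 6.05 ± 0.62, with 2 of its untreated arrays well above background. Interferon alpha genes are near-identical copies, so that their probes may share transcripts and the genes are not separate evidence. Ifnl3, an interferon lambda gene, was the member that did not pass (0.01). The list's median was 4.71, 4.91 and 1.93 within experiments 1, 2 and 3, and 12 members rose without the arrays numbered 3. Over single left-out wild-type arrays between 9 and 12 members rose, and 5 with slide as a fixed block.

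The sensors of double-stranded RNA rose as a class, and the adaptors and kinases that carry their signal mostly did not. Of 34 genes of the sensing pathway, 15 rose and 0 fell, with a median change of 0.73, beside 5.24% and 1.53% of all genes. All 8 sensors passed, beside 2 of 10 adaptors, 0 of 9 kinases and 5 of 7 transcription factors. Ifih1, the gene of MDA5, read -2.74, -3.17 and -1.93 untreated and 4.03, 3.77 and 3.30 treated (6.31 ± 0.42, adjusted p = 1.78e-05). Zbp1, whose product binds left-handed nucleic acid helices, read -1.24, -1.29 and -1.02 and then 5.00, 5.03 and 2.11 (5.23 ± 0.64). Ddx58, the gene of RIG-I, read 1.96, 1.97 and 1.21 and then 5.82, 5.74 and 4.86 (3.76 ± 0.38), and is named for its role and not by the rule. None of these genes overlapped between groups. The transcription factor gene Irf7 changed by 5.92 ± 0.73, from -2.45, -2.11 and -3.18 to 3.89, 4.11 and 2.02. Its relative Irf3, which needs no induction before it acts, changed by 0.09 and did not pass, nor did the adaptor gene Mavs (-0.29). Oas1a, whose product makes the 2-5A that switches on RNase L, changed by 5.45 ± 0.60, with reads that may be shared by near-identical OAS1 copies. Without the arrays numbered 3, 21 of the 34 genes rose and 3 fell, beside 13% and 21.1% of all genes.

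Downstream of the interferon receptor, Stat2 and Irf9, whose products bind the ISRE, rose, while the receptors and JAK kinases were not called. Of 35 genes of this list, 6 rose and 0 fell (median 0.16), beside 5.24% and 1.53% of all genes. Usp18, Stat2, Irf9, Socs1 and Cish were among the 6. None of 10 receptor genes and none of 4 kinase genes passed. Stat2 read 1.18, 1.11 and 0.24 untreated and 5.47, 5.45 and 4.54 treated (4.31 ± 0.46). Irf9 read 1.53, 1.44 and 1.13 and then 4.52, 4.63 and 4.53 (3.19 ± 0.21). For Irf9 the 3 treated arrays agree within 0.11, and experiment 3 was not the lowest. Usp18, a feedback gene whose product removes ISG15 and blocks the receptor, read -1.36, -2.37 and -1.76 and then 6.43, 6.20 and 5.39 (7.83 ± 0.50). Without the arrays numbered 3, 13 members rose and 5 fell, beside 13% and 21.1% of all genes.

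Among interferon-stimulated effector genes, 62 of 69 tested rose, with a median change of 4.26, beside 5.24% of all genes. Of the 60 detected on all untreated arrays 53 rose (median 3.70). Rsad2, the viperin gene, whose product makes a chain-terminating nucleotide, was dim on all untreated arrays and read 4.68, 4.57 and 3.33 after poly(I:C), at least 1134-fold higher. Ifit1, whose product binds viral RNA ends, read -3.10, -1.47 and -1.77 and then 6.80, 6.74 and 5.71 (8.53 ± 0.47). Isg15, the gene of a ubiquitin-like modifier, was already detected untreated, at 3.52, 3.14 and 3.18, and reached 9.28, 9.14 and 8.33 (5.64 ± 0.31). These 3 genes were called under every alternative in which they were tested. Cmpk2, a nucleotide kinase gene beside Rsad2, changed by 8.75 ± 0.88 and the guanylate-binding protein gene Gbp7 by 8.14 ± 0.70, each with only part of its untreated arrays well above background. The 7 members that did not pass were Ifi27, Ifi27l2a, Ifitm1, Ifitm2, Samhd1, Sp100 and Mov10, and Ifitm1 changed by -0.12. Mx1 and Mx2 are among 10 members not analysed here. The list's median was 4.61, 4.63 and 3.54 within the 3 experiments. In all, 64 members rose without the arrays numbered 3, and 47 with slide as a fixed block.

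Of 48 chemokine and cytokine genes, 36 were tested and 12 are not analysed here. Of the 36, 19 rose and 0 fell (median 2.22), beside 5.24% and 1.53% of all genes. Of the 25 detected on all untreated arrays 10 rose (median 0.93), and of 8 detected on none of them 7 rose, which had entered through treated arrays. Il6, which encodes interleukin 6, read 4.71, 4.60 and 3.01 on the poly(I:C) arrays and was dim on all untreated ones, at least 1068-fold higher (adjusted p = 2.69e-07). Ccl4, the gene of a chemokine for monocytes and T cells, read 5.53, 5.32 and 3.98, at least 1795-fold higher. Both genes lay above the 75th percentile of the array on all 3 poly(I:C) arrays. Cxcl10, a chemokine for activated T cells, was already detected, at 2.40, 2.32 and 2.33, and reached 9.60, 9.46 and 8.60 (6.87 ± 0.22). Ccl5 read 1.92, 1.80 and 2.46 and then 8.34, 8.21 and 6.98 (5.78 ± 0.38). The other members called were Tnfsf10, Cxcl2, Tnf, Ccl2, Il15, Csf2, Ccl7, Cxcl9, Lif, Tslp, Ltb, Cxcl1, Cxcl16, Lta and Csf1. Of these, Tnfsf10, Cxcl2, Csf2, Cxcl9 and Lta were dim on every untreated array, while Ccl2 (3.83) and Ccl7 (3.43) were well above background there. Without the arrays numbered 3, 26 members rose and 1 fell, beside 13% and 21.1% of all genes.

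Of 18 genes of NF-kB subunits and inhibitors 9 rose and 0 fell (median 0.84), beside 5.24% and 1.53% of all genes. Among the 13 inhibitors 6 rose. With slide as a fixed block 4 of the 18 rose, with scan day so fixed 5, and with 1 wild-type array left out 6 to 11. Without the arrays numbered 3, 13 rose, beside 13% of all genes. Tnfaip3, the gene of the ubiquitin-editing enzyme A20, read 0.81, 0.77 and 1.58 and then 4.99, 4.79 and 4.86 (3.82 ± 0.25). Nfkbie changed by 2.51 ± 0.17 and N4bp1 by 1.79 ± 0.29. Nfkbia, the gene of IkBα, which holds NF-kB in the cytosol and is its own target, read 4.97, 4.88 and 4.94 and then 7.00, 6.96 and 6.33 (1.83 ± 0.17). Among subunits, 3 of 5 rose, while Rela (0.30) and Nfkb1 (0.77) did not pass.

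Genes of antigen presentation on MHC class I rose in 17 of 24 members (median 1.92), beside 5.24% of all genes. With slide as a fixed block 7 rose, and 12 with only the wild-type arrays. Without the arrays numbered 3, 21 rose, beside 13% of all genes. All 10 class I chain genes passed, though their sequences are much alike and a probe may read more than 1 of them. Nlrc5, the activator of class I genes, read -4.04, -4.38 and -3.16 and then 2.16, 2.02 and -0.23 (5.18 ± 0.57). Tap1, a subunit of the peptide transporter, read -2.53, -3.00 and -3.16 and then 3.05, 2.85 and 0.87 (5.15 ± 0.61). In both genes the treated reading of experiment 3 was the lowest, and the groups did not overlap. The immunoproteasome genes Psmb9 and Psmb8 changed by 4.93 ± 0.56 and 4.39 ± 0.61. By contrast, 0 of 29 genes of the constitutive proteasome passed (median -0.15). The list's median was 2.47, 2.45 and 0.86 within the 3 experiments.

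**Figure D2:**
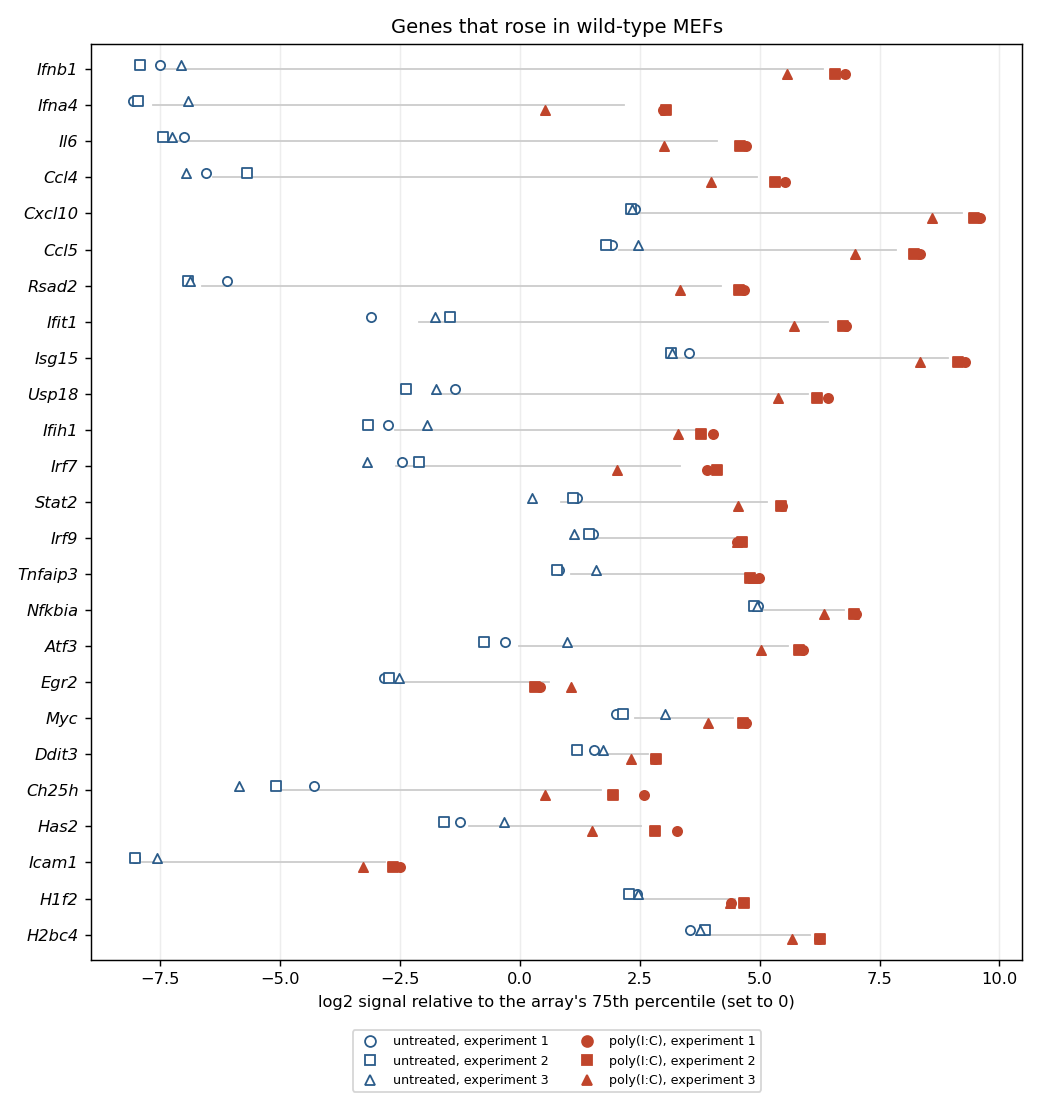
Log2 signal relative to the 75th percentile of the array (horizontal axis) for 25 genes that rose (1 row each), with open blue symbols for the 3 untreated arrays, filled red ones for the 3 poly(I:C) arrays and the shape giving the experiment. The grey line joins the group means. Experiment 3 (triangles) lies lowest among the treated arrays for most of the genes, while Egr2 reads highest there (1.06), and in no gene do the groups overlap.

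Of 26 immediate-early genes, which cells switch on within minutes to hours of a stimulus without new protein, 16 rose after 6 h (median 1.43). Over all genes 5.24% rose. With slide as a fixed block 5 of the 26 rose, with scan day so fixed 9, and with 1 wild-type array left out 11 to 17. Without the arrays numbered 3, 20 rose, beside 13% of all genes. Atf3, a stress-induced repressor, read -0.31, -0.75 and 0.98 and then 5.90, 5.82 and 5.04 (5.61 ± 0.45). Egr2 read -2.84, -2.73 and -2.53 and then 0.43, 0.31 and 1.06 (3.30 ± 0.22, adjusted p = 1.98e-05). Egr4 was dim untreated and at least 6.93-fold higher. The rise of Egr2 was not smallest in experiment 3, unlike that of Batf2, a partner of IRF factors, which read 3.00, 2.95 and 0.00 treated (5.03 ± 0.68). Myc, the growth regulator, read 2.00, 2.16 and 3.02 and then 4.72, 4.66 and 3.92 (2.04 ± 0.33). The genes that end such signals also rose in part, set here beside the 5.24% of all genes. Of 20 MAP kinase phosphatase and feedback genes, 5 rose: Dusp5, Dusp8, Errfi1, Dusp1 and Dusp16, with changes of 2.15 ± 0.54 for Dusp5 and 0.95 ± 0.19 for Dusp1. The count was 0 without untreated 1 or poly(I:C) 2 and with slide as a fixed block, 1 without untreated 2 or poly(I:C) 1, and 10 without untreated 3. Without the arrays numbered 3 it was 11, beside 13% of all genes. The median of that list within experiment 3 was -0.03, against 0.57 and 0.76 within experiments 1 and 2. Of 23 genes that act on AU-rich mRNA, 3 rose, beside 5.24% of all genes. Zfp36, whose product starts the decay of cytokine transcripts, read -2.65, -2.27 and -2.34 and then 0.23, 0.51 and 0.55 (2.85 ± 0.22). The decapping enzyme gene Dcp2 changed by 1.91 ± 0.29 and the RNase gene Zc3h12a by 0.64 ± 0.16.

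Calls among stress and death genes differed between lists. Over all genes 5.24% rose and 1.53% fell. Of 53 genes of the integrated stress response, the program set off when eIF2α is phosphorylated, 10 rose and 0 fell (median 0.28). They included Atf3, Eif2ak2, the gene of PKR (3.30 ± 0.45), Chac1, which degrades glutathione (1.88 ± 0.43), and Ddit3, the gene of CHOP (1.18 ± 0.24). Ddit3 read 1.55, 1.19 and 1.73 and then 2.82, 2.85 and 2.32. Atf4 itself, whose product is made by translational control, changed by 0.35 ± 0.12 and did not pass (adjusted p = 0.0962). Ppp1r15a, the gene of GADD34, read 2.65, 2.62 and 3.36 and then 5.79, 5.83 and 5.81. Its change of 2.93 ± 0.91 did not pass (adjusted p = 0.0805), although the wild-type groups did not overlap, and it passed with only the wild-type arrays (adjusted p = 0.00196). Over all alternatives its adjusted p ran from 1.13e-05 to 0.553. Only 2 members of the list passed without wild-type untreated 1 or 2 or poly(I:C) 1 or 2. Without the arrays numbered 3, 23 rose, beside 13% of all genes. Of 27 endoplasmic reticulum chaperone genes, 0 rose and Sdf2l1 fell (-0.52 ± 0.13), and Hspa5, the leading marker of unfolded protein stress, changed by 0.07. None of 22 heat shock genes passed (median -0.08).

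Of 41 cell death genes, 5 rose and 1 fell, beside 5.24% and 1.53% of all genes. Without the arrays numbered 3, 14 rose and 7 fell, beside 13% and 21.1% of all genes. With 1 wild-type array left out, rises ran from 1 (without poly(I:C) 1) to 12 (without poly(I:C) 3), with 2 or 3 without poly(I:C) 2 or untreated 1 or 2, and with median scaling 0 fell. Casp4, the gene of the mouse sensor caspase usually called caspase-11, read -1.13, -1.24 and -1.55 and then 4.49, 4.19 and 2.34 (4.98 ± 0.75). Pmaip1, the gene of the killer protein NOXA, changed by 3.84 ± 0.76, the death receptor gene Fas by 2.37 ± 0.43 and Mlkl, the executioner of necroptosis, by 1.89 ± 0.41. The BCL2-family gene Bad fell (-0.47 ± 0.12). Of 22 p53 targets, 6 rose, Pmaip1 and Fas among them with Gadd45a (1.85 ± 0.28) and Btg2 (1.79 ± 0.19), and Zmat3 fell (-0.88 ± 0.20), while 0 of 5 regulators of p53 passed. Without poly(I:C) 1 2 of these genes rose and without poly(I:C) 2 3. Without the arrays numbered 3, 10 of the 27 p53 genes, regulators included, rose and 6 fell, beside 13% and 21.1% of all genes. The arrest gene Cdkn1a rose by 1.73 ± 0.32.

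Among the genes in no list, the following had the largest rises. Cd274, the gene of the checkpoint ligand PD-L1, read -4.36, -4.68 and -5.09 and then 3.41, 3.32 and 1.76 (7.54 ± 0.54). P2rx7, an ATP-gated channel gene, read -4.30, -4.63 and -3.44 and then 2.16, 2.22 and -0.56 (5.40 ± 0.90). Saa3, the gene of an acute phase protein, changed by 5.93 ± 0.72, Neurl3, a ubiquitin ligase gene, by 6.39 ± 0.49, and Hcar2, a receptor gene for niacin and ketone bodies, by 5.36 ± 0.78. Each of these 3 was well above background on only 1 untreated array, so that its size rests partly on background readings. Mndal, of the IFI200 family, changed by 5.79 ± 0.78. Ifit1bl1, Tgtp2, Trim30d, Trim12c, Trim12a, Gbp2b, Phf11a, Ifi47 and Oas1f also belong here (5.36 to 7.92), most of them in families of near-identical copies, which makes their separate values uncertain.

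Outside the innate lists, single members of several lists rose, beside 5.24% of all genes: 1 of 36 cholesterol, 1 of 45 matrix, 2 of 21 adhesion, 1 of 12 prostaglandin, 1 of 29 matrix protease, 1 of 17 clock and 2 of 41 Wnt, Hedgehog and Notch genes. The prostaglandin gene lost its call without untreated 1 or 2 or poly(I:C) 1 or 2. Ch25h, whose product makes 25-hydroxycholesterol from cholesterol, read -4.29, -5.08 and -5.85 and then 2.59, 1.95 and 0.52 (6.76 ± 0.52). Has2, the gene of the main hyaluronan synthase of fibroblasts, read -1.26, -1.59 and -0.34 and then 3.28, 2.82 and 1.51 (3.60 ± 0.56). In both genes the smallest treated value, that of experiment 3, still lay above every untreated value. Icam1, an adhesion molecule for leukocytes, was at least 8.86-fold higher, and Vcam1, another, changed by 2.80 ± 0.34. The prostaglandin synthase gene Ptgs2 read 0.81, 1.73 and 2.93 and then 5.11, 4.93 and 4.15 (2.91 ± 0.74, adjusted p = 0.0451). The Notch ligand gene Dll1 was at least 17.2-fold higher and the Notch target Hes1 rose by 1.20 ± 0.26. The matrix protease gene Adamts1 rose by 1.26 ± 0.21, and Nfil3, a repressor of clock genes, by 1.34 ± 0.19. Hexokinase 2 (Hk2, 1.49 ± 0.34), Pfkfb3 (0.87 ± 0.19) and the growth factor gene Vegfa (0.96 ± 0.23) rose within the list of glycolysis and hypoxia genes, and lost their call without any 1 of those 4 arrays.

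Of 21 replication-dependent histone genes 8 rose and 0 fell (median 0.45), beside 5.24% and 1.53% of all genes. Between 6 and 8 rose with any 1 wild-type array left out. H1f2, the gene of a linker histone, read 2.44, 2.27 and 2.46 and then 4.40, 4.66 and 4.39 (2.10 ± 0.13, adjusted p = 9.77e-06). H2bc4 read 3.55, 3.86 and 3.75 and then 6.23, 6.26 and 5.68 (2.34 ± 0.20). H1f3 was dim untreated and at least 13.4-fold higher. Transcripts of these genes normally end without a poly(A) tail, are made in S phase, and come from near-identical copies. Of 28 DNA replication factor genes 0 passed, beside 6.77% of all genes. Of the 47 genes of replication and the start of S phase 7 rose and 7 fell without the arrays numbered 3. In that setting 13% of all genes rose and 21.1% fell. Of 59 homeobox and limb factor genes 4 rose, a share near the 5.24% of all genes, among them Hoxb5 (2.32 ± 0.33, 1 untreated array well above background), Foxf1 and Snai2, and 0 fell. Without untreated 1, poly(I:C) 1 or poly(I:C) 2, 1 of these genes rose. Without the arrays numbered 3, 12 rose and 15 fell, beside 13% and 21.1% of all genes.

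Further rises are named here after their values were seen. All 3 genes of the CYP26 enzymes, which destroy retinoic acid, rose. Cyp26a1 read -4.05, -4.21 and -5.26 and then 0.84, 0.48 and -1.46 (4.46 ± 0.70), Cyp26b1 changed by 2.81 ± 0.51, and Cyp26c1 was dim untreated and at least 2.22-fold higher. Of 10 tested host genes of small nucleolar RNAs (the Snhg genes), 5 rose and 0 fell (median 0.72). Snhg16 read 3.74, 3.59 and 4.19 and then 5.66, 5.53 and 5.13 (1.60 ± 0.18), and Snhg17, Snhg12, Snhg1 and Snhg5 changed by 0.98 to 1.65.

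The falls were shallow, and experiment 3 showed them least. Narf, whose product binds prelamin A, fell most, from -0.07, -0.31 and -1.47 to -3.04, -3.31 and -2.28 (-2.26 ± 0.39, adjusted p = 0.00699). Foxq1, a forkhead factor gene, read 1.85, 2.14 and 1.01 and then 0.09, 0.38 and 0.59 (-1.31 ± 0.28). Castor2, whose product takes part in amino acid sensing by mTORC1, read 2.93, 2.79 and 1.99 and then 1.05, 1.06 and 1.75 (-1.28 ± 0.26). For Narf and Castor2 experiment 3 was the odd one on both sides, lower untreated and higher treated, with a gap between its 2 arrays of under 1. The regulators Id2 (-1.07 ± 0.21) and Gata2 (-0.94 ± 0.19), and Vgll4, a partner of TEAD factors (-0.82 ± 0.17), also fell. Id2 read 3.84, 4.13 and 3.65 and then 2.45, 2.73 and 3.24. Rdh11, a retinol dehydrogenase gene, fell by little with a tight spread, from 2.72, 2.73 and 2.69 to 2.16, 2.04 and 2.33 (-0.53 ± 0.10). Trem1, Slc2a13, Slc4a9, Slc5a3 and Arvcf fell by 0.54 to 0.96 and, like these, kept their call in at least 22 of 30 alternatives.

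Other falls kept their call under fewer alternatives (7 to 19 of up to 30, Usp17la aside). Ankrd37, a hypoxia-induced gene, read 1.46, 0.25 and -0.41 and then -1.18, -1.63 and -1.52 (-1.88 ± 0.46, adjusted p = 0.0388). Smad9, a BMP signal gene, read -1.47, -1.09 and -0.93 and then -3.51, -3.27 and -1.52 (-1.60 ± 0.42). Pdk2, a brake on pyruvate dehydrogenase, changed by -1.37 ± 0.36, Reck, a matrix protease inhibitor, by -1.48 ± 0.37, and Fbxo32, the ubiquitin ligase atrogin-1, by -1.13 ± 0.29. In Fbxo32 the arrays of experiment 3 read -3.55 and -3.56, so that its fall rests on experiments 1 and 2. Fam13a (-2.13 ± 0.55) and Cysrt1 were well above background on only 1 poly(I:C) array. Krtap1-5, Ajm1, Lyzl4, Tcea3 and Tnfaip8l1 fell by 1.18 to 1.86. Mgat3 (-2.24), named after its values were seen, was the 1 fall whose groups overlapped. Rab25 and Olfr955 were not well above background on any poly(I:C) array, and were at least 1.84-fold and 1.82-fold lower. Usp17la cannot be given a direction: its brighter probe fell (-1.66 ± 0.17) and its other probe rose (3.32), and the gene belongs to a family of near-identical copies. Tacr2 was the other gene whose probes were called in opposite directions.

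**Figure D3:**
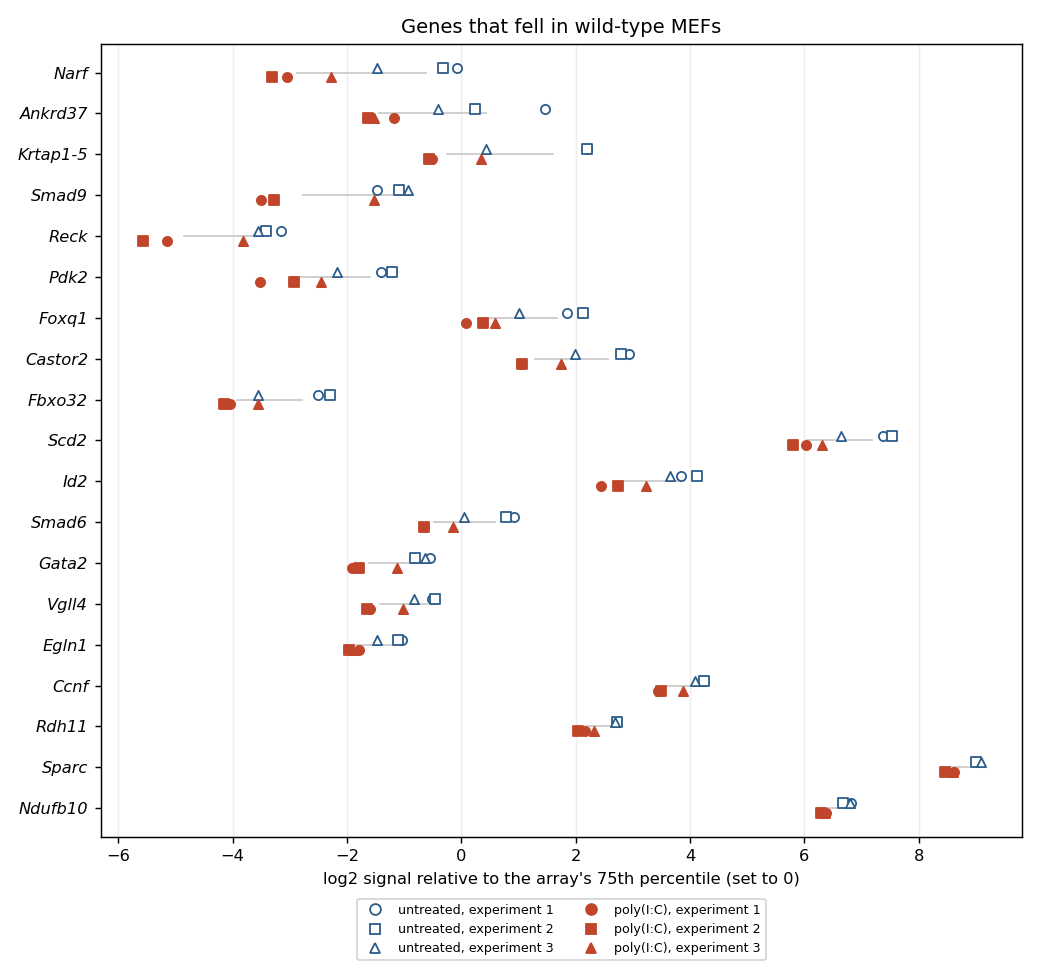
Log2 signal relative to the 75th percentile of the array (horizontal axis) for 19 genes that fell (1 row each), with open blue symbols for the 3 untreated arrays, filled red ones for the 3 poly(I:C) arrays and the shape giving the experiment. The triangles of experiment 3 lie close together in most rows, as for Fbxo32 at -3.55 untreated and -3.56 treated, while circles and squares are well apart.

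By function, the falls were thinly spread, with at most 5 in any list, beside 1.53% of all genes. Without untreated 2, poly(I:C) 1 or poly(I:C) 2, 0 falls were left in the 17 lists that held any, without untreated 1 there was 1, without untreated 3 there were 96 and without poly(I:C) 3 49. Of 36 genes of cholesterol synthesis and its control 2 fell, among them Cyp51 (-0.51 ± 0.13), which encodes a late enzyme of the pathway, and Ch25h was the 1 rise. The list's median was -0.49, the lowest of the lists on genes outside innate immunity, and 22 of its members were lower on all 3 poly(I:C) arrays than on any untreated array, beside 18.6% of all genes. Hmgcs1 (-0.60, adjusted p = 0.133) was among those that did not pass. Without the arrays numbered 3, 20 of the 36 fell, beside 21.1% of all genes. Of 30 fatty acid genes, Scd2, the desaturase gene (-1.14 ± 0.30), and Elovl5 (-0.48 ± 0.11) fell. Without the arrays numbered 3, 17 fell, beside 21.1% of all genes.

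In the list of glycolysis and hypoxia genes 4 rose and 5 fell of 35, beside 5.24% and 1.53% of all genes. The falls were Ankrd37, P4ha1 (-0.78 ± 0.20), the oxygen sensor gene Egln1 (-0.68 ± 0.14), Tpi1 (-0.51 ± 0.12) and Pgam1. In this list 0 rose and 0 fell with the wild-type arrays only, or without untreated 1 or 2 or poly(I:C) 1 or 2, and 2 rose and 0 fell with median scaling. Without the arrays numbered 3, 4 rose and 17 fell, beside 13% and 21.1% of all genes. All 39 oxidative phosphorylation genes had a change below 0, between -0.42 and -0.07 with a median of -0.25, beside a median of -0.14 for all genes. Of these, 2 passed, Ndufb10 (-0.42 ± 0.10) and Sdhd (-0.40 ± 0.10), beside 6.77% of all genes. Without the arrays numbered 3, 12 fell, beside 21.1% of all genes. Of 37 mitochondrial ribosomal protein genes, Mrpl18 and Mrpl34 fell (both -0.46 ± 0.10), beside 1.53% of all genes. None of 71 cytosolic ribosomal protein genes passed, with changes of -0.26 to -0.02, and their median was 0.05, 0.01 and -0.45 within the 3 experiments.

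In the list of YAP and TGF-beta targets, Id4 (1.90 ± 0.38), Tgif1 (1.30 ± 0.18) and Ptpn14 (0.82 ± 0.21) rose, while the inhibitory SMAD gene Smad6 (-1.07 ± 0.25) and Id2 fell. The YAP targets Ccn1 (0.78) and Ccn2 (1.08) did not pass, and untreated array 3 read higher than the other untreated arrays for both, at 5.71 and 5.28. Of 41 Wnt, Hedgehog and Notch genes, Tcf7l1 (-0.96 ± 0.25) and the receptor gene Fzd2 (-0.67 ± 0.16) fell, beside the 2 rises, Dll1 and Hes1. Over all genes 5.24% rose and 1.53% fell. Of 45 collagen and matrix genes, Has2 rose and Sparc fell (9.02, 9.00 and 9.08, then 8.63, 8.46 and 8.61, -0.47 ± 0.12). None of 20 collagen genes passed (median -0.42), Col1a1 included (-0.38 ± 0.60).

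Cell division genes were called in single cases, beside 6.77% of all genes. Ccnf, the gene of cyclin F, was the 1 fall of 38 mitosis genes (-0.58 ± 0.15), and of 47 genes of replication and the start of S phase Myc and Cdkn1a rose and Cdkn2c fell (-0.69 ± 0.17). Within experiments 1, 2 and 3 the median of mitosis genes was -0.35, -0.46 and 0.05. Without the arrays numbered 3, 20 of 38 fell, beside 21.1% of all genes. Among primary cilium genes, Ift27 fell (-0.61 ± 0.14), and 22 of 37 fell without those arrays, beside the same 21.1%. Ribosome biogenesis genes went the other way. With all arrays 0 of 30 passed, and 17 rose without the arrays numbered 3, beside 13% of all genes. Their medians were 0.60, 0.50 and -0.18 within experiments 1, 2 and 3. The calls in these 3 lists changed with whether experiment 3 was counted.

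**Figure D4:**
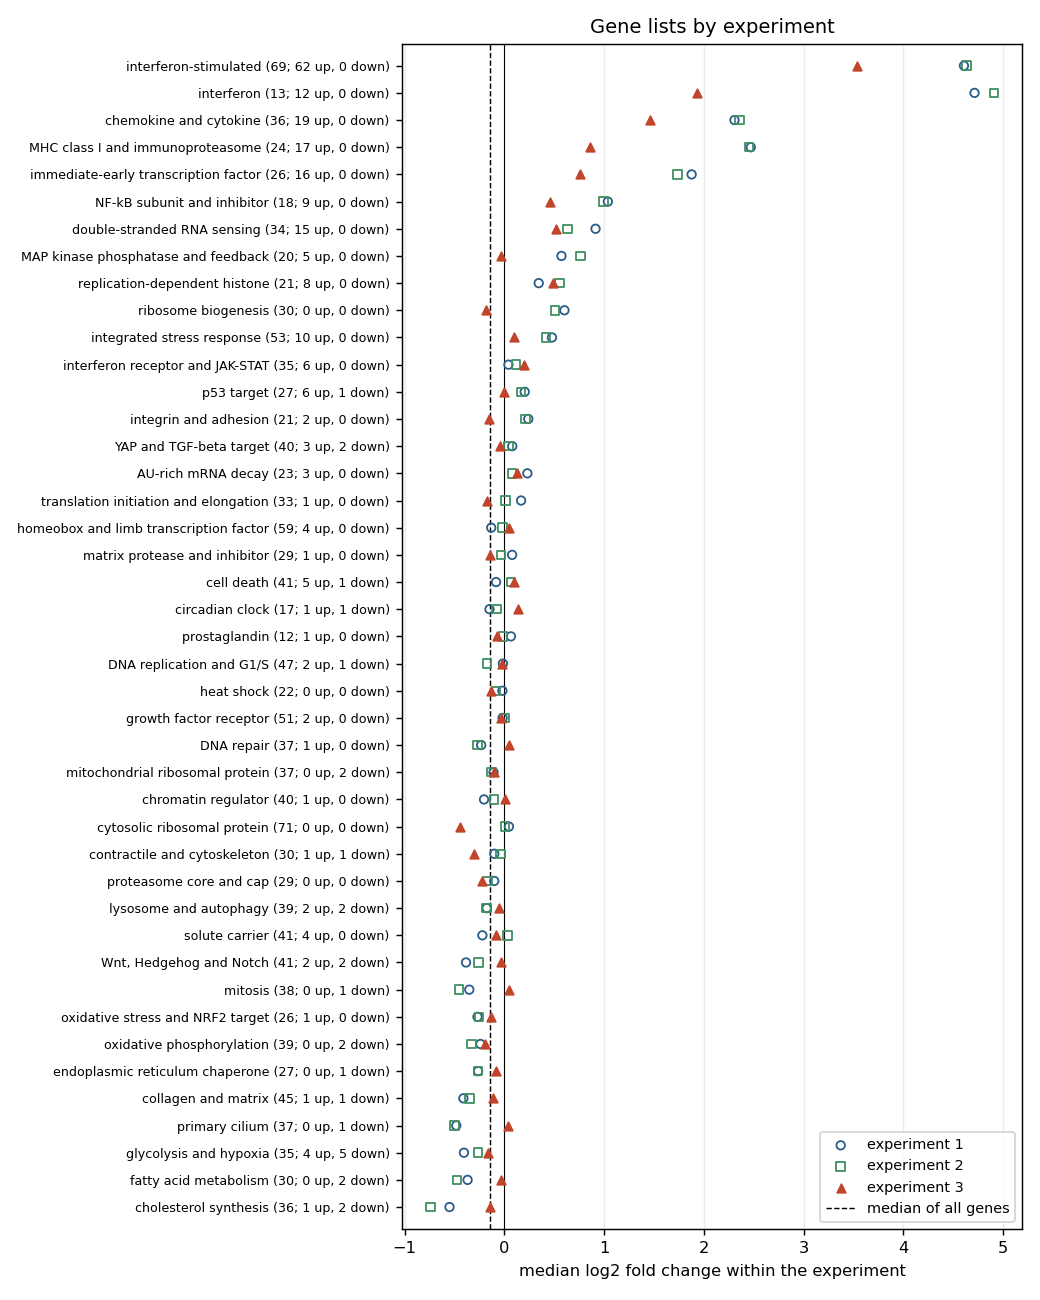
Median log2 fold change of each of 43 gene lists within experiment 1 (circles), 2 (squares) and 3 (triangles), with the number of genes tested and called beside each name and the dashed line at the median of all genes (-0.14). Experiments 1 and 2 lie close together for most lists, and experiment 3 lies nearer to 0 for the lists at the top and at the bottom, for example 1.93 against 4.71 and 4.91 for the interferon genes.

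The letters of known regulatory sites were counted in RefSeq promoters, as a description with no test. Promoters were matched for 639 of the 809 genes that rose (805 promoters), 201 of the 237 that fell (268) and 12250 of all genes tested (15418). ISRE letters were in 10.4% of the promoters of genes that rose, 0.746% of those of genes that fell and 2.69% of those of all genes tested, and in 2.98% of all 32851 promoters in the table. The shorter IRF letters, which every ISRE match holds, were in 27.5%, 11.2% and 16.8% (21.3% of the table). NF-kB letters in the narrow form (GGGA, any base, TTTCC) were in 1.74%, 0.373% and 0.415% (0.356% of the table), and in the wide form, which includes it, in 2.73%, 1.12% and 1.26% (1.21% of the table). Shares in the same order were 7.83%, 2.24% and 4.98% for AP-1 (TGANTCA), 9.07%, 6.72% and 6.19% for GAS (TTCNNNGAA), 4.47%, 1.49% and 2.32% for the amino acid response element (TGATGNAA), and 2.36%, 0.373% and 1.36% for the CArG box. In the table they were 6.75%, 7.02%, 3.45% and 1.47%. For the CRE (TGACGTCA) they were 2.86%, 1.12% and 2.33%, for the CCAAT box (CCAAT) 36.9%, 42.2% and 35.1%, for the E-box (CACGTG) 5.84%, 5.97% and 7.7%, for the E2F site (TTTNNCGC) 5.71%, 8.58% and 6.14%, and for the sterol element (TCACNCCAC) 0.745%, 0.746% and 1.03%. In the table the first 4 of these stood at 1.55%, 33.8%, 6.02% and 4.28%. The wide NF-kB and the IRF letters were added after the promoters had been read.

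Marker genes of several cell types were detected. Of 13 fibroblast markers, 12 were tested and 9 were well above background on all 6 arrays, and their summed log2 signal was 10.04 to 10.26 untreated and 9.75 to 9.97 after poly(I:C). Fap, an activated-fibroblast protease gene, rose (at least 2.89-fold), and Lum was not tested. Of 13 macrophage and leukocyte markers, 9 were tested, 0 were called and 7 were well above background on all 6 arrays, with a summed log2 signal of 4.57 to 4.75 untreated and 4.07 to 4.22 treated. Cd68, Lyz2, Tyrobp and Laptm5 were not tested, and Aif1 was well above background on no wild-type array. Well above background on all 6 arrays were also 6 of 8 epithelial, 7 of 7 neural, 3 of 4 endothelial and 3 of 4 muscle markers tested. Epcam and Cdh1, which define epithelium, and Des were not well above background on any of them, and Cdh5, Tek, Tie1, Emcn, Myod1 and Myog were not tested. Of 4 endothelial markers tested, Vwf rose (1.49 ± 0.30). The summed signals were 3.92 to 4.47 and then 3.98 to 4.04 for endothelial, 2.20 to 3.17 and 1.74 to 2.77 for epithelial, 4.05 to 4.25 and 3.90 to 4.23 for neural and 1.73 to 2.25 and 1.78 to 2.36 for muscle markers. These detections do not set fibroblasts apart from the other types, since levels of different probes are not compared, and the part of other cell types in the results was not tested.

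The calls differed in how far they held under other settings. Of the 809 rises, 147 were called under every one of the 30 alternatives in which they were tested, and of the 237 falls 0 were. With slide as a fixed block 219 rises and 2 falls kept their call, and with scan day as a fixed block 456 and 21. With only the wild-type arrays 423 and 5 did, and without wild-type poly(I:C) 1 or 2 372 and 2 or 388 and 3. Only the pair of experiment 2 shared a slide across the groups (2 arrays), and 1 scan day held both groups (3 arrays). There the median change was 2.00 and 2.04 for the rises and -0.79 in both cases for the falls, beside -0.13 and -0.15 for all genes; these arrays also chose the genes, so that this is no check of the calls. The test of the difference between the wild-type and the ΔC response called 3 genes (0.0194%), all of them among the genes that rose here, and 38 with the replicate block.

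**Figure D5:**
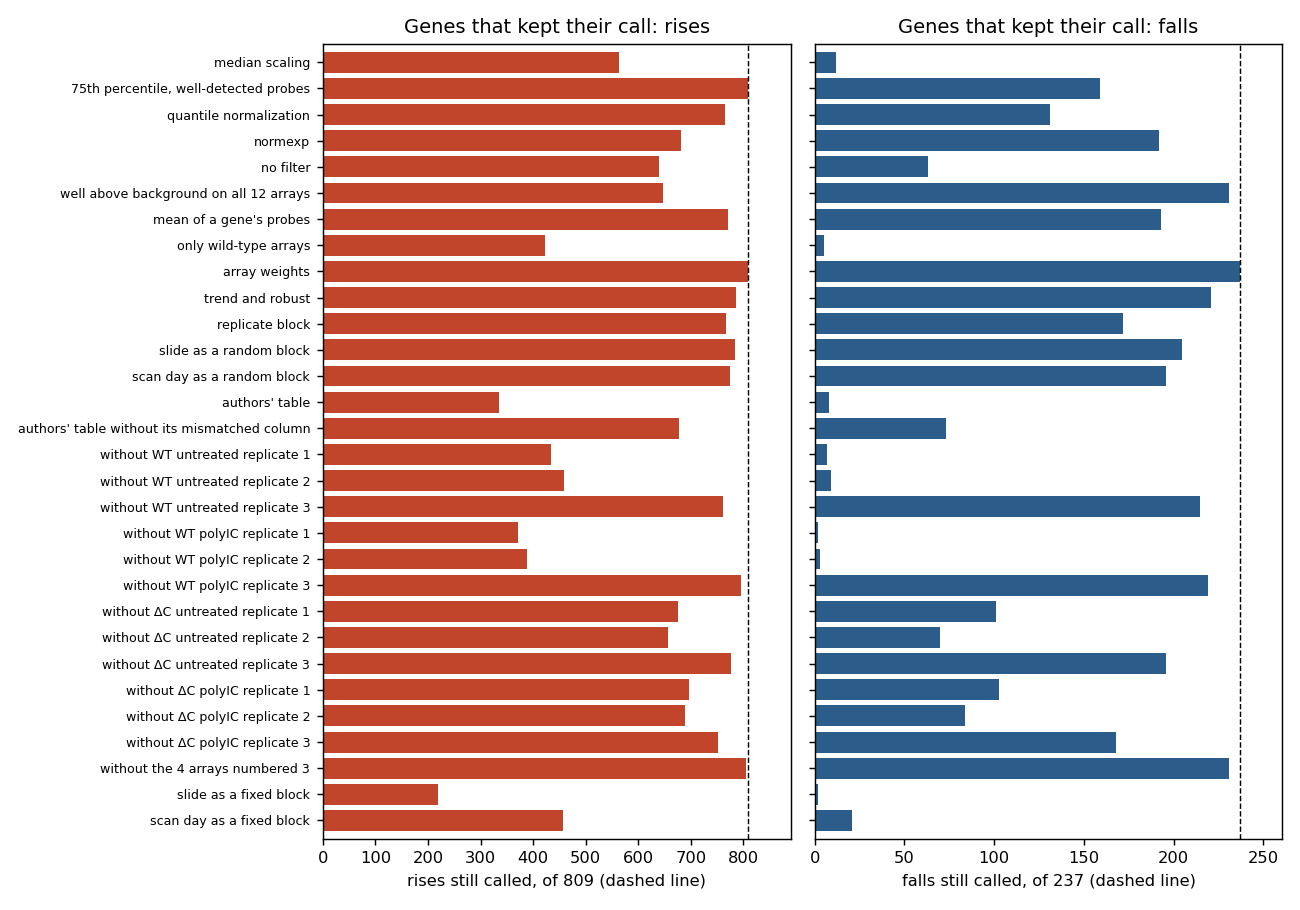
Number of the 809 rises (left) and of the 237 falls (right) that were still called in the same direction under each of the 30 alternative settings, with the dashed lines at the full number. Rises run from 219 (slide as a fixed block) to 809, and falls from 2 to 237, with fewer than 10 falls left where slide is a fixed block, where the fit holds the wild-type arrays only, with the authors' table, or without untreated 1 or 2 or poly(I:C) 1 or 2.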

How the data were processed

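RNA was measured on Agilent single-colour arrays (12 arrays, 6 wild type). The deposited scanner files hold spot intensity, background-subtracted and spatially detrended with Feature Extraction 10.7.3.1, per the file headers, with no normalization between arrays. The authors' deposited log2 table names limma in the submitters' processing notes; its steps are not given in the sources used here, and 1 of its columns (ΔC poly(I:C) 1) did not match its own array, so it served only as an alternative.

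Here control spots and spots with an outlier flag were left out, and log2 processed intensity was averaged over the other spots of a probe. Each array was scaled to its 75th percentile. Probes whose spots were all flagged on any array (107) were not tested. RefSeq accessions named 27235 of 55681 probes (GRCm38.p6 names; no positions used except for promoters). Testing a gene required a probe detected by the scanner's background flag in every array of 1 or more of the 4 groups, and the probe with the highest mean stood for the gene; 3993 genes had several probes. limma 3.58.1 (R 4.3.3) fitted 1 mean per group over 12 arrays (8 residual degrees of freedom, prior 2.19), two-sided, Benjamini-Hochberg, and was tested on simulated data. The files say nothing on cultures beyond separate experiments, so that p-values measure the spread between these arrays. Bounds ("at least N-fold") raise dim arrays to their lowest well-above-background signal. Array values have no count depth; the number of arrays limits precision.

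Genes were named by rule: the 15 largest rises and falls with groups apart and signal in both, also among genes in no list; the 5 largest bounds; up to 4 rises and falls per list, or the 2 largest changes; the 15 falls called under most alternatives; and 20 fixed genes. Members and lists were chosen with earlier results of these data known, and some lists share members. Deviations of arrays with the same number correlated between the wild-type groups (r = 0.135, 0.375 and 0.348). No values for different numbers stand beside these, so that they do not settle whether the numbers pair the arrays. The main fit holds no term for the number, and the replicate block is an alternative to it. Alternatives covered scaling, background correction (normexp, offset 50), dim-probe filters, probe choice, samples in the fit, weights, blocks, the authors' table and left-out arrays; slide and scan day as fixed blocks were added after seeing the data. Some list members are not reported here.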

Additional observations from a re-analysis of the deposited data

Results flagged for a closer look

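The difference between the wild-type and ΔC responses passed the test (limma, Benjamini-Hochberg) for 3 genes. This fit does not pair the arrays by number. With the replicate number as a block 38 genes passed, and without the 4 arrays numbered 3 it was 297. Cxcl1 rose less in wild-type cells, by 2.39 against a change of 5.52 in ΔC cells (difference -3.13, adjusted p = 0.0176). Fbxo15 changed by 2.94 in wild-type and 0.33 in ΔC cells (difference 2.61, adjusted p = 0.018), and Gbp2b by 6.88 and -0.36 (difference 7.24, adjusted p = 0.0483). The first is the only one of the 3 in which the wild-type response was the smaller.

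Probes with no gene name lie outside the comparison of genes. In a fit of all 35200 probes, in which 3.59% were called higher and 0.58% lower, 409 of 14969 unnamed probes were higher after poly(I:C) and 84 were lower. The higher ones comprise 193 probes named by position only, 69 with an Ensembl transcript and 147 with another identifier, and 241 of the 409 were higher by 4-fold or more.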

How the results depend on the processing

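Why the counts below moved was not tested. The 809 rises became 444 with wild-type arrays only, 2482 with array weights, 338 with the authors' table, 2001 without the 4 arrays numbered 3, 222 with slide fixed as a block, 480 with scan day so fixed, and ran from 372 to 1193 with 1 array left out. They moved by less than 1.5 times in the other 20 of 30 alternatives. The 237 falls became 14 with median scaling, 148 with quantile normalization, 72 with no filter, 7 with wild-type arrays only, 4263 with array weights, 570 with a trended robust prior, 8 with the authors' table and 80 without its mismatched column, 3262 without the arrays numbered 3, and 10 and 49 with slide and scan day fixed. With 1 array left out they ran from 2 (without poly(I:C) 1) to 1138 (without untreated 3). Rises of 2-fold or more (605) became 1054 with array weights, 320 with the authors' table, 1022 without the arrays numbered 3 and 221 with slide fixed, and ran from 350 to 827 with 1 array left out. Falls of 2-fold or more (34) became 10 with median scaling, 22 with the percentile over well detected probes, 16 with no filter, 6 with wild-type arrays only, 577 with array weights, 57 with a trended robust prior, 2 with the authors' table and 10 without its mismatched column, 594 without the arrays numbered 3 and 10 with slide fixed, and ran from 2 to 260 with 1 array left out. The 84 unnamed probes that were lower became 29 with median scaling.

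With the replicate number as a block, 942 genes rose and 338 fell, 767 and 172 of them among the calls above, and the difference between the genotypes was called for 38 genes instead of 3. That count was 398 with array weights and 297 without the arrays numbered 3.

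Of the named genes, Usp17la reversed to 2.27 with normexp (adjusted p = 0.00664, limma) and 0.83 with the mean of its probes. Others that changed sign were not called in either setting: Hspb8 (0.036), Krt5 (0.070), Hspa5 (-0.026) and Ccnd1 (-0.055) with slide fixed, and Actb without the arrays numbered 3 (0.047) and with scan day fixed (0.0085). With 1 array left out, Krt5 ran from -0.52 to 0.036, Tnnt2 from -0.0052 to 0.47, Hspa5 from -0.018 to 0.12 and Ccnd1 from -0.034 to 0.22. Of 112 named rises 49 and of 53 named falls 0 kept their call throughout. Dim probes limit the rises: 105 were not well above background on any untreated array.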
